A study of Mus musculus with 34 samples.

Results

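Ribosomal protein genes were taken from a gene table of mouse RNA-seq libraries as the entries whose symbol opens with Rpl, Rps or Rplp and a digit, with the ribosomal S6 kinase genes left out. This name rule, which used no measured value, found 89 of 24103 entries. Of these, 73 carry the symbol of a protein of the cytosolic ribosome, 30 of the small 40S subunit and 43 of the large 60S subunit, and are called the core genes here. Another 15 are paralogs, retrocopies or pseudogenes of core genes, among them Rps4l and Rpl10l, and are described apart. The last, Rps19bp1, is named for a binding partner of Rps19 and is not a ribosomal protein. The core symbols Rpl13a, Rpl26 and Rpl30 stand in entries that open with another symbol, and Rpsa and Fau have names outside the rule, so these 5 were not counted as members.

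The ribosome reads messenger RNA on its small subunit and joins amino acids on its large subunit, and the core proteins are shared by the ribosomes of all cells. The genes lie scattered over the genome, and their messages share a start in a run of pyrimidines, the 5′ terminal oligopyrimidine or TOP motif, through which the kinase TOR controls their translation. Rapidly growing pluripotent cells are known for high ribosome production, which is lowered as cells differentiate. Several core genes have paralogs or intronless copies; Rpl10l and Rpl39l are known in mice from the male germ line, where they take the place of X-linked parents.

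The series profiled polyadenylated RNA of 34 libraries in 9 groups. Epiblast stem cells (EpiSC, n = 3) came from a single female C57BL6 line grown on feeder fibroblasts in Activin and FGF. Mouse embryonic fibroblasts (MEF, n = 6) came from C57BL6 embryos, as 2 cultures sampled at 3 passages each. The remaining groups form a differentiation course of the embryonic stem cell line CBMS1, of CBA/MsM background, which is a single line. It runs over embryonic stem cells in 2i/LIF medium (ESC, day 0, n = 3), epiblast-like cells (EpiLC, day 2, n = 5) and embryoid bodies aggregated from the EpiLCs in plain GK15 medium with no added factor, a route towards neural ectoderm (EB, days 3 to 6, n = 3 a day, and day 7, n = 5). Strain, and for EpiSCs sex as labelled, medium and feeders, differ together with cell type between the C57BL6 groups and the course, so their parts cannot be told apart. The labels call the replicates biological without saying whether they were separate cultures. The titles carry dates, which differ among the EpiLC libraries and among the replicates of each EB day. In several sets of libraries the dates follow the days, so libraries of successive days may share a culture course. The main p-values leave such links out. They measure the spread between these libraries, which may be technical.

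Summed FPKM ran between 485700 and 990700 over the libraries, and 11300 to 12210 entries reached 1 FPKM. Absolute depth is unknown, but the steps between low values put relative depth at 0.844 to 1.19 times the median over libraries. No 2 libraries were identical, and libraries of a group correlated at 0.96 to 0.99. Replicate 3 of the day 3 EBs stood apart, with the highest summed FPKM and the highest ribosomal protein level of all libraries, and replicate 1 of the day 4 EBs was also high. The labels of the course disagree in 9 of 25 libraries, where the cell type field names another day than the title, and titles were followed. Marker sums set the ends of the course apart: 5 naive markers summed to 42.8 to 57.4 FPKM in EpiLCs and 1390 to 1516 FPKM in ESCs, and 5 neural progenitor markers to 162 to 226 FPKM in day 7 EBs and 14.3 to 14.8 FPKM in ESCs. They do not settle the disagreement between neighbouring days: the naive sums were 179 to 249 FPKM at day 4 and 108 to 124 FPKM at day 3, and the neural sums of day 7 overlapped with those of day 6, at 144 to 164 FPKM. Libraries carry 2 project codes, called project A (19 libraries, with every ESC and MEF library) and project B (15 libraries, with every EpiSC library). As these are bulk samples, fewer cells of a type and less RNA per cell cannot be told apart.

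To show the start sites these messages share, windows of 90 bases around annotated starts, 60 before and 30 from the start, are given for 4 core genes: Rps12, Rpl15 and Rplp2, which recur in the results, and Rpl27a, whose run of 20 bases is the longest of these. Capitals mark pyrimidine runs of at least 10 bases within the printed window. The sequences are RefSeq's, on GRCm38.p6. In the same order as the lines, the windows lie at chr10:23787180-23787269 (minus strand), chr14:18270957-18271046 (minus strand), chr7:109519135-109519224 (plus strand) and chr7:141447591-141447680 (plus strand).
Rps12: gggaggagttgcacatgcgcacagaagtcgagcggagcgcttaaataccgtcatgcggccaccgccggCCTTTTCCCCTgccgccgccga
Rpl15: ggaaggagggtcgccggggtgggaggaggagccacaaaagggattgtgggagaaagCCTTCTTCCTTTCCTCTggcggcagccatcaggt
Rpl27a: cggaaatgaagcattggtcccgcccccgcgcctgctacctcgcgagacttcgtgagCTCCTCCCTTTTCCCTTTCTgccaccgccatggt
Rplp2: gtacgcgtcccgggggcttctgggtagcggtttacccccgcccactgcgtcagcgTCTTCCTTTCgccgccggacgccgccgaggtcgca

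Of the paralogs, 4 described below are shown for contrast. Rpl22l1 (chr3:28805448-28805537, plus strand) holds a run, whereas Rps27l (chr9:66946026-66946115, plus strand), Rpl39l (chr16:10170168-10170257, plus strand) and Rpl10l (chr12:66284372-66284461, minus strand) hold none in these windows.
Rpl22l1: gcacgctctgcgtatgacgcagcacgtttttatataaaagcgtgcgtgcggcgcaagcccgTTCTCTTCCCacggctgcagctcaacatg
Rps27l: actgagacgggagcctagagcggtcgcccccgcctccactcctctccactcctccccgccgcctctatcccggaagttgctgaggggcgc
Rpl39l: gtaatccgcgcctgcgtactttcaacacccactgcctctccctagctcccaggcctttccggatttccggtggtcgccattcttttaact
Rpl10l: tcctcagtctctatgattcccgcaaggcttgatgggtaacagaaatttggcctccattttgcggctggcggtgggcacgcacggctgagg

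A RefSeq promoter was matched by symbol to 64 of the 89 members. Runs were searched in the 50 bases on each side of the annotated start, which differs from the windows printed above. A pyrimidine run of at least 10 bases was found for 37 of 54 core genes (68.5%), for 13 of 22 genes of the 40S subunit and 24 of 32 of the 60S subunit, against 18.0% of all 27025 promoters. The same run on the opposite strand, read as purines, was found for 13% of core genes and 18.4% of all promoters. Of the paralogs and copies, 3 of 9 held a pyrimidine run. CCGGAAG, the core of ETS family sites, searched on both strands of the 300 bases of each promoter, was present in 38.9% of core genes and 9.12% of all promoters. CACGTG, the E-box bound by Myc, was present in 7.41% and 7.24%, and TATAAA in 9.26% and 14.2%. These matches describe letters in the windows, not bound sites. Nor do the pyrimidine runs count TOP starts: the longest run began 42 bases before the annotated start in Rpl27 and 40 bases after it in Rpl10.

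Ribosomal protein messages were among the most abundant in every group. Of the 50 entries with the highest mean over all libraries, 39 were members, and of the top 100, 65 were. Over the 9 group means, 63 of 73 core genes averaged above 1000 FPKM. The highest were Rplp1, a protein of the acidic stalk of the large subunit, at 6050 FPKM, Rpl41 at 5175 FPKM, Rps12 at 4598 FPKM, Rps20 at 4491 FPKM and Rps27 at 3941 FPKM. The lowest core genes were Rps15a at 136 FPKM, Rpl37 at 172 FPKM, Rpl14 at 232 FPKM, Rpl22 at 282 FPKM and Rpl21 at 578 FPKM. For 3 of these low genes a member copy matches nearly all of the coding sequence, Rps15a-ps6 98.7% of Rps15a, Rpl37rt 99.7% of Rpl37 and Rpl14-ps1 98.9% of Rpl14. How reads that fit both were counted is not given in the sources used here, so the levels of these 3 pairs are uncertain. The entries of Rps27 and Rpl34 also carry the symbols Rps27rt and Rpl34-ps1, so their levels may include those copies.

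The summed share of the members in all FPKM was lowest in MEFs, at 20.6% ± 0.751 (SD, n = 6), and stood at 24.6% ± 0.641 in EpiSCs (n = 3). Along the course it was 28.1% ± 0.426 in ESCs (n = 3), 26.4% ± 0.607 in EpiLCs (n = 5), 29.1% ± 4.37 at day 3, 28.3% ± 2.36 at day 4, 27.5% ± 2.21 at day 5 and 28.0% ± 1.70 at day 6 (n = 3 each), and 24.7% ± 0.641 at day 7 (n = 5). The 5 libraries of day 7, from 24.0% to 25.7%, lay below every ESC and EpiLC library, and the MEF libraries, from 19.5% to 21.5%, lay below all others.

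The level of the typical core gene was also lowest in MEFs. The median over the 73 core genes was 1755 ± 112 FPKM in EpiSCs and 1437 ± 85.9 FPKM in MEFs. In the course it was 2288 ± 99.9 FPKM in ESCs, 2142 ± 80.8 FPKM in EpiLCs, 2943 ± 1235 FPKM at day 3, 2528 ± 410 FPKM at day 4, 2235 ± 305 FPKM at day 5, 2159 ± 352 FPKM at day 6 and 1664 ± 76.5 FPKM at day 7. The 3 day 3 libraries read 2099, 2369 and 4361 FPKM, so the day 3 mean rests on replicate 3. The groups of days 0 to 6 overlapped with their neighbours in this order, EpiSCs (1643 to 1867 FPKM) overlapped with day 7 (1599 to 1790 FPKM), and the highest MEF library, at 1515 FPKM, lay below the lowest of day 7.

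**Figure D1:**
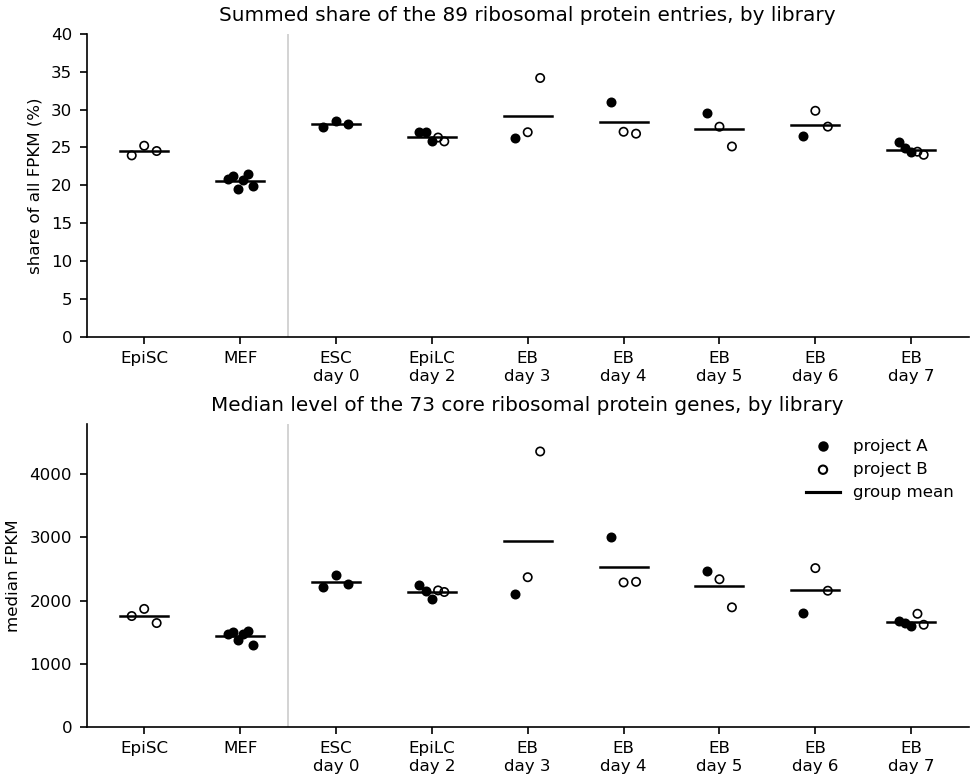
Summed share of the members in all FPKM (percent) and median over the 73 core genes (FPKM) in each library, by group; filled points are project A, open points project B. The day 7 libraries lie between 24.0% and 25.7%, the MEF libraries between 19.5% and 21.5%, and replicate 3 of the day 3 EBs stands highest at 34.2% and 4361 FPKM.

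Core genes differed in how far they moved. The gap between a core gene's highest and lowest group mean had a median of 1.07 on the log2 scale. It was widest for Rpl29 (1.62), Rpl8 (1.48), Rplp1 (1.45), Rpl36 (1.45) and Rpl6 (1.42), and narrowest for Rpl23 (0.58), Rps18 (0.62), Rpl17 (0.63), Rpl23a (0.68) and Rpl32 (0.72). These gaps rest on the day 3 mean, which replicate 3 raised. Without day 3 the median was 0.84, the widest gaps were those of Rpl29 (1.41), Rpl36a (1.38), Rpl39 (1.34), Rps4x (1.33) and Rplp2 (1.30), and the narrowest those of Rps19 (0.48), Rps9 (0.52) and Rps2 (0.52), while Rpl8 came to 0.95 and Rpl6 to 1.09. The highest mean fell in day 3 EBs for 63 of 73 core genes. With day 3 set aside it fell in day 4 EBs for 55 and in ESCs for 14. The lowest fell in MEFs for 43, in day 7 EBs for 18 and in EpiSCs for 12.

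At the exit from the naive state, EpiLCs at day 2 against ESCs at day 0, few core genes passed the test. By limma on log2(FPKM + 1), 0 of 73 core genes rose and 8 fell at a Benjamini-Hochberg adjusted p below 0.05. Of all 14595 entries tested, 26.7% were called higher and 25.5% lower, shares above the 0 and 8 of 73 of the core genes. At an unadjusted p below 0.05, 0 core genes were higher and 10 lower. With the spread taken from these 2 groups alone, 4 were higher and 26 lower at that threshold. The median difference was -0.10 over the core genes and 0.02 over all entries tested. As deposited, each library's median log2 ratio to the mean over libraries lay between -0.0039 and 0.022, over tested entries above 0 in all. Here and below, a median near 0 over all entries is therefore largely set by the scaling of the values. Of the 40S genes 29 of 30 lay below 0, of the 60S genes 30 of 43. Of all 88 tested members 12 were called in either direction, where 52.2% of entries were, and 0 with a difference of at least 1, where 16.8% were. Without replicate 3 of day 3, which enters only the shared estimate of the spread, 12 core genes fell, and in project A alone 1 rose and 14 fell. Another scaling, quantile normalization, called 10 core genes higher and 11 lower, where 27.9% and 24.8% of all entries were.

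The 8 that fell were Rpl39, Rpl36a, Rplp2, Rps20, Rps28, Rps4x, Rps29 and Rps18. Rplp2, the second acidic protein of the stalk, was at 1801, 1441, 1387, 1505 and 1396 FPKM in EpiLCs and at 2192, 2359 and 2102 FPKM in ESCs. All EpiLC libraries lay below all ESC libraries, and the log2 difference was -0.56 (SE 0.12, adjusted p = 0.000226, limma). Rps20, a 40S protein, averaged 3862 ± 241 FPKM in EpiLCs (n = 5) and 5550 ± 358 FPKM in ESCs (n = 3), a log2 difference of -0.52 (SE 0.18, adjusted p = 0.0145, limma).

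Day 4 EBs were next compared with EpiLCs, and few core genes passed the test. Of 73 core genes, 68 had a positive difference, and the median was 0.23, against 0.00 over all entries. Past the adjusted p, 3 core genes rose and 0 fell, where 16.6% of all entries were called higher and 19.2% lower. Of all 88 tested members 8 were called in either direction, where 35.8% of entries were, and 3 with a difference of at least 1, where 6.59% were. These calls depended on single libraries: without replicate 1 of day 4, 0 core genes passed, adjusted or not, by limma and the median was 0.09, and without replicate 3 of day 3 in the shared spread 21 rose. Project B alone gave 6 higher, with a median of 0.11.

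The 3 were Rpl12, Rpl23a and Rpl15, all of the 60S subunit. Rpl12, a protein at the base of the stalk, was at 3864, 3300 and 3250 FPKM at day 4 and at 2515, 2516, 2388, 2675 and 2562 FPKM in EpiLCs. The groups did not overlap, and the log2 difference was 0.45 (SE 0.17, adjusted p = 0.0337, limma). Rpl23a, which lines the exit of the peptide tunnel, averaged 3902 ± 748 FPKM at day 4 (n = 3) and 2928 ± 53.2 FPKM in EpiLCs (n = 5), a log2 difference of 0.40 (SE 0.14, adjusted p = 0.0243, limma). Rpl15, shown above with a run of 17 pyrimidines, averaged 996 ± 171 FPKM at day 4 and 809 ± 14.9 FPKM in EpiLCs, a log2 difference of 0.29 (SE 0.11, adjusted p = 0.0453, limma).

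Between day 4 and day 7 the core genes fell together. At day 7, 69 of 73 core genes were lower past the adjusted p and 0 higher, 28 of 30 in the 40S and 41 of 43 in the 60S subunit, where 28.3% of all entries were called lower and 32.4% higher. All 73 differences were negative, with a median of -0.60, against 0.03 over all entries. Of all 88 tested members 79 were called, where 60.7% of entries were called in either direction, and 7 with a difference of at least 1, where 19.6% were. The 4 core genes that did not pass were Rps15, Rps28, Rpl17 and Rplp2. Only 2 core genes reached a difference of 1, where 6.91% of all entries were called lower by that much.

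Rplp1 was at 3399, 3651, 3499, 3105 and 3058 FPKM at day 7 and at 9824, 6387 and 6277 FPKM at day 4. All day 7 libraries lay below all day 4 libraries, and the log2 difference was -1.14 (SE 0.19, adjusted p = 5.66e-06, limma). Its stalk partner Rplp2, at 1150 ± 135 FPKM at day 7 (n = 5) and 1291 ± 92.4 FPKM at day 4 (n = 3), did not pass, with a log2 difference of -0.17 (SE 0.12, adjusted p = 0.224, limma).

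Rps12, a 40S protein, was at 3175, 2957, 3015, 2698 and 2476 FPKM at day 7 and at 7831, 4820 and 4925 FPKM at day 4. The groups did not overlap, and the log2 difference was -1.0 (SE 0.19, adjusted p = 3e-05, limma). Rplp0, the scaffold of the stalk and a common normalization gene, averaged 1773 ± 124 FPKM at day 7 and 3033 ± 284 FPKM at day 4, a log2 difference of -0.77 (SE 0.15, adjusted p = 5.59e-05, limma). Rpl5 and Rpl11, which bind Mdm2 when ribosome assembly is disturbed, differed by -0.41 (adjusted p = 0.015, limma) and -0.61 (adjusted p = 0.00239, limma) on that scale.

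The day 4 values rest in part on its high replicate. Without replicate 1 of day 4, 45 core genes fell and the median was -0.46, and in project B alone, which lacks that library, 62 fell with a median of -0.45. The values also depend on the scaling, and the members held 19.5% to 34.2% of all FPKM in a library. Median-of-ratios rescaling, which aligns the typical entry of each library, changed little, with 70 core genes lower, 0 higher and a median of -0.60. Setting the sum of all other entries equal between libraries moved the median of all entries to 0.28 and that of the core genes to -0.24. The gap between the core genes and all entries was then -0.53, against -0.63 as deposited. With these sums 36 core genes fell and 0 rose, where 16.3% of all entries fell and 45.4% rose. Quantile normalization by construction gives every library the same set of values and so also the same top values. It called 11 core genes higher and 8 lower, where 27.1% and 31.8% of all entries were, with a core median of 0.01.

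Over the whole course, day 7 EBs against ESCs, 55 of 73 core genes fell and 0 rose, where 31.4% of all entries were called lower and 34.5% higher. All 73 differences were negative, with a median of -0.45 against 0.03 over all entries. Of all 88 tested members 63 were called, where 65.9% of entries were called in either direction, and 10 with a difference of at least 1, where 28.8% were. Within project A alone 69 core genes fell, with a median of -0.48. With equal sums of all other entries 24 core genes fell and 0 rose, where 21.9% of all entries fell and 45.0% rose. The core median was then -0.14 and that of all entries 0.25. With quantile normalization 9 core genes fell and 20 rose, where 32.3% and 33.1% of all entries did, and the core median was 0.06. This comparison shares its day 7 libraries with the previous one and its ESC libraries with the first.

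The 5 core genes that fell by at least 1 were Rpl36a, Rpl39, Rplp1, Rps4x and Rpl10, where 12.6% of all entries were called lower by that much. Of these, 4 lie on the X chromosome and are described below. Rplp1 averaged 3342 ± 255 FPKM at day 7 (n = 5) and 7779 ± 356 FPKM in ESCs (n = 3), a log2 difference of -1.22 (SE 0.19, adjusted p = 1.24e-06, limma). Rpl10a, known for translation of selected messages in mice, differed by -0.64 (adjusted p = 0.00059, limma). Rpl38, known in mice for axial patterning, was at 3051 ± 219 FPKM at day 7 and 3942 ± 342 FPKM in ESCs and did not pass (adjusted p = 0.112, limma), and neither did Rpl5, Rpl11, Rps19 or Rps25.

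An F test over days 0 to 7 (limma) passed for 70 of 73 core genes, where 90.6% of all entries passed. Rpl17, Rps27 and Rpl32 did not, with adjusted p of 0.0893, 0.0652 and 0.0593. Over all 9 groups every tested member passed, where 98.4% of all entries did.

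**Figure D2:**
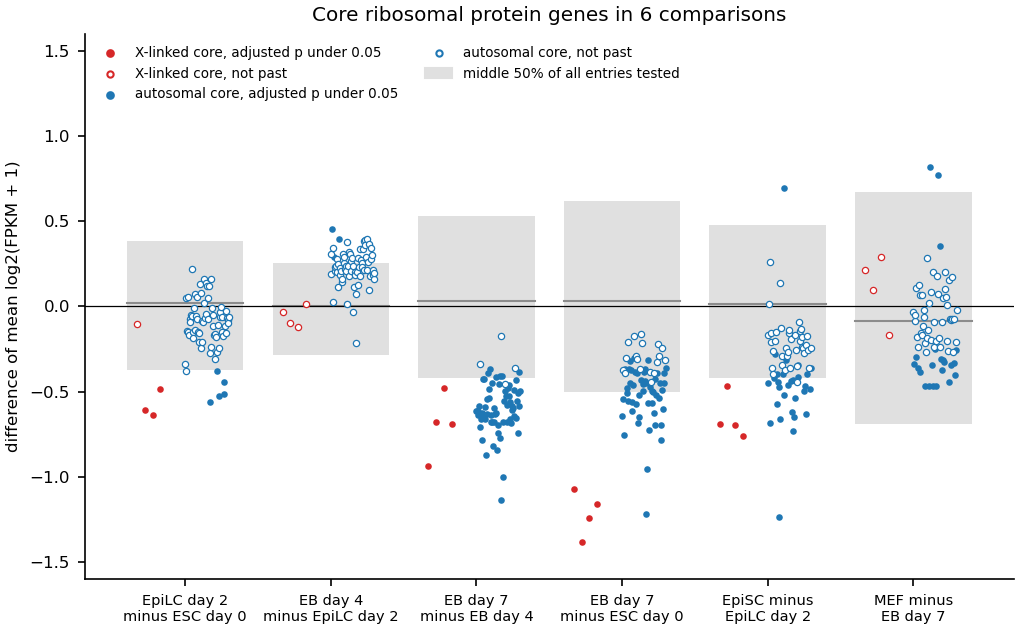
Fitted difference of mean log2(FPKM + 1) of each of the 73 core genes in the 6 comparisons, X-linked in red and autosomal in blue, filled where the adjusted p is under 0.05; grey boxes span the middle 50% of all entries tested, with their median as a grey line. The core genes lie below 0 at day 7 against day 4 (median -0.60) and at day 7 against ESCs (median -0.45), where the 4 X-linked genes lie at -1.07 to -1.38.

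The 4 core genes on the X chromosome had a lower median difference than the autosomal ones at day 2 and at day 7 against ESCs. They are Rps4x (mm9 chrX, 99380282 to 99383710), Rpl10 (71516155 to 71518474), Rpl36a (131120193 to 131122601) and Rpl39 (34622515 to 34625179). In EpiLCs against ESCs their median difference was -0.55, against -0.09 over the 69 autosomal core genes, and 3 of 4 fell, where 5 of 69 autosomal core genes did. Rpl39 (-0.64) and Rpl36a (-0.61) lay below all 69 autosomal core genes, the lowest of which was Rplp2 (-0.56), while Rps4x (-0.49) and Rpl10, which did not pass, lay among them. At day 7 against ESCs it was -1.2, against -0.45 over the autosomal core genes, and all 4 fell by at least 1, where 1 of 69 did. In project A alone the gaps were -0.41 at day 2 and -0.71 at day 7. They were -0.46 and -0.75 both with median-of-ratios rescaling and with equal sums, and -0.37 and -0.67 with quantile normalization.

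Rps4x, a protein of the small subunit, was at 4462, 4647 and 4395 FPKM in ESCs, at 3547, 3049, 3257, 3237 and 2999 FPKM in EpiLCs and at 2233, 2031, 1933, 2022 and 1866 FPKM in day 7 EBs. None of the 3 groups overlapped. The log2 difference was -0.49 for EpiLCs against ESCs (SE 0.15, adjusted p = 0.00877, limma) and -1.16 for day 7 against ESCs (SE 0.15, adjusted p = 8.98e-08, limma).

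Rpl36a, of the large subunit, was at 2835, 2873 and 3006 FPKM in ESCs, at 2115, 1876, 1969, 1836 and 1739 FPKM in EpiLCs and at 1327, 1116, 1156, 1015 and 980 FPKM in day 7 EBs. Again no group overlapped with another. The log2 differences from ESCs were -0.61 at day 2 (SE 0.20, adjusted p = 0.00985, limma) and -1.38 at day 7 (SE 0.20, adjusted p = 3.02e-07, limma).

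Rpl39, the small protein at the peptide exit tunnel, differed by -0.64 at day 2 (SE 0.19, adjusted p = 0.00491, limma) and by -1.24 at day 7 (SE 0.19, adjusted p = 9.15e-07, limma). Rpl10, which joins the large subunit late in its assembly, did not pass at day 2: it was at 4336, 3315, 3714, 4433 and 4283 FPKM in EpiLCs and at 4204, 4514 and 4162 FPKM in ESCs. These groups overlapped (adjusted p = 0.641, limma). It was lower at day 7 against ESCs, by -1.07 (SE 0.16, adjusted p = 1.08e-06, limma).

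Within each library, the median of the 4 X-linked genes minus that of the autosomal core genes, on the log2 scale, was 0.07 to 0.14 in EpiSCs and 0.41 to 0.61 in MEFs. In the course it ran from 0.95 to 1.01 in ESCs, 0.42 to 0.67 in EpiLCs, 0.39 to 0.49 at day 3, 0.21 to 0.36 at day 4, 0.16 to 0.31 at day 5, 0.19 to 0.27 at day 6 and 0.18 to 0.39 at day 7. No ESC library overlapped with a library of any other group, and days 4 to 7 overlapped with each other. This measure lies within a library and does not depend on its scaling factor. X-linked entries as a whole moved the same way: over 245 of them with a mean of at least 10 FPKM, the median difference was -0.26 at day 2 and -0.70 at day 7 against ESCs, and over 6723 autosomal entries 0.08 and -0.09. As background, female mouse cells silence a single X chromosome as they leave the pluripotent state; the sources used here do not state the sex of the CBMS1 line, and the part of X silencing in these values was not tested.

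**Figure D3:**
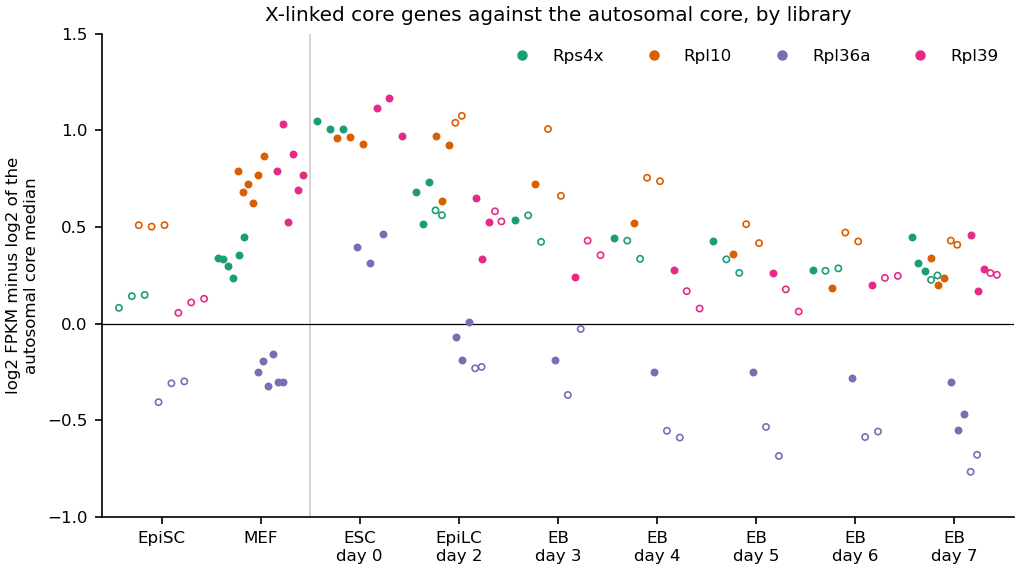
Log2 FPKM of each X-linked core gene minus the log2 of the median of the autosomal core genes in the same library, by group; filled points are project A, open points project B. In ESCs Rps4x, Rpl10 and Rpl39 lie at 0.93 to 1.17 and Rpl36a at 0.31 to 0.46, and Rpl36a is below 0 in every library of EpiSCs, MEFs and days 3 to 7.

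Epiblast stem cells were compared with EpiLCs, the epiblast-like stage of the course. Here 33 of 73 core genes were lower in EpiSCs and 1 higher, where 28.6% of all entries were called lower and 30.7% higher. The median was -0.35 over the core genes and 0.01 over all entries. Of all 88 tested members 47 were called, where 59.3% of entries were called in either direction, and 7 with a difference of at least 1, where 19.1% were. In project B alone, which holds all EpiSCs and 2 EpiLC libraries, 19 were lower and 1 higher with a median of -0.34. With equal sums of all other entries 17 core genes were lower and 4 higher, where 20.5% of all entries were lower and 38.9% higher. The median of all entries moved to 0.17. With quantile normalization 10 core genes were lower and 16 higher, where 29.4% and 29.0% of all entries were. EpiSCs were grown on feeders, and 6 fibroblast markers summed to 274 to 453 FPKM in EpiSCs and 11.9 to 17.2 FPKM in EpiLCs, all 6 at 10 FPKM or more in EpiSCs, where MEFs held 8021 to 12450 FPKM; the part of feeder RNA was not tested.

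Rpl29, a 60S protein that mice can lack and live, stood out from the other core genes. It was at 616, 654 and 566 FPKM in EpiSCs and at 1495, 1453, 1370, 1457 and 1446 FPKM in EpiLCs. The log2 difference was -1.24 (SE 0.13, adjusted p = 2.9e-09, limma), and EpiSCs also lay below MEFs of the same strain label, whose 6 libraries had a lowest, median and highest of 987, 1068 and 1108 FPKM. It was the sole core gene to fall by at least 1, where 8.22% of all entries were called lower by that much. Rpl37 was the 1 core gene that rose, at 230, 243 and 229 FPKM in EpiSCs and 145, 139, 121, 171 and 150 FPKM in EpiLCs, a log2 difference of 0.69 (SE 0.18, adjusted p = 0.00122, limma). Its near-identical copy Rpl37rt fell at the same time, averaging 5.40 FPKM in EpiSCs and 12.6 FPKM in EpiLCs (adjusted p = 0.00397, limma).

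The X-linked core genes again had a lower median than the autosomal ones, at -0.69 and -0.34 in EpiSCs against EpiLCs, and all 4 passed. Autosomal Rpl29 (-1.24) lay below all 4. Over all X-linked entries with a mean of at least 10 FPKM the median was -0.22, and over autosomal ones -0.08. Rps4x had a log2 difference of -0.76 (SE 0.15, adjusted p = 9.71e-05, limma), and Rplp2, which is autosomal, one of -0.73 (SE 0.12, adjusted p = 5.39e-06, limma).

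In fibroblasts against day 7 EBs core genes were called in both directions. In MEFs 19 of 73 core genes were lower and 3 higher, where 40.7% of all entries were called lower and 35.9% higher. The median was -0.14 over the core genes and -0.08 over all entries. Of all 88 tested members 29 were called, where 76.5% of entries were called in either direction, and 4 with a difference of at least 1, where 34.4% were. Project A alone gave 27 lower and 5 higher with a median of -0.15, and without replicate 3 of day 3 in the shared spread 29 were lower and 6 higher. The 6 MEF libraries are 2 cultures at 3 passages each, and with the mean of each culture 12 of 88 members were called, 3 higher and 9 lower. At an unadjusted p under 0.05, 2 core genes were then higher and 10 lower. Median-of-ratios rescaling gave 17 lower and 3 higher. The other scalings gave more lower calls. Equal sums of all other entries gave 56 lower and 2 higher, where 49.3% of all entries were lower and 28.5% higher. They moved the median of all entries to -0.28. Quantile normalization gave 48 lower and 5 higher, where 43.0% and 34.1% of all entries were.

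The 3 that rose were Rpl37, Rplp1 and Rps12. Rplp1 had a lowest, median and highest of 5179, 5768 and 6127 FPKM in MEFs and was at 3399, 3651, 3499, 3105 and 3058 FPKM at day 7. The groups did not overlap, and the log2 difference was 0.77 (SE 0.16, adjusted p = 4.93e-05, limma). Rpl37 averaged 189 ± 18.0 FPKM in MEFs (n = 6) and 107 ± 10.8 FPKM at day 7 (n = 5), a log2 difference of 0.82 (SE 0.15, adjusted p = 9.52e-06, limma), and Rps12 differed by 0.36 (SE 0.15, adjusted p = 0.0376, limma). With the mean of each culture Rps12 no longer passed (adjusted p = 0.169, limma), while Rpl37 (adjusted p = 0.00128, limma) and Rplp1 (adjusted p = 0.00486, limma) still did.

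The 5 core genes with the largest decreases in MEFs differed by about the same amount: Rpl36 (-0.47), Rpl3 (-0.47), Rpl8 (-0.47), Rpl5 (-0.46) and Rps25 (-0.44). Rpl3, which lies near the catalytic centre, averaged 1039 ± 78.1 FPKM in MEFs and 1437 ± 93.9 FPKM at day 7 (adjusted p = 0.000351, limma). With the mean of each MEF culture Rpl36 (adjusted p = 0.0648, limma) and Rpl8 (adjusted p = 0.0519, limma) no longer passed, and Rpl3, Rpl5 and Rps25 did. None of the 4 X-linked core genes passed here. Their median difference was 0.15, against -0.16 over the autosomal core genes.

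A few of the paralogs and copies moved over far wider ranges than any core gene. The gap between highest and lowest group mean on the log2 scale was 8.09 for Rps4l, 7.64 for Rpl10l, 7.06 for Rpl14-ps1 and 6.08 for Rpl39l, followed by Rps15a-ps6 (2.64) and Rps27l (1.80). The others lay within or near the range of the core genes, such as Rpl22l1 (1.12) and Rpl36al (1.41), and the median over the 15 was 1.57. The copies differ in how close they are to their parents. By coding sequence (GENCODE M21), Rps4l matches 79.8% of the bases of Rps4x, Rpl10l 84.8% of Rpl10, Rpl39l 85.3% of Rpl39, Rpl36al 87.9% of Rpl36a, Rps27l 76.1% of Rps27 and Rpl22l1 68.7% of Rpl22. The pseudogenes are closer, Rps15a-ps4 at 97.5%, Rpl31-ps12 at 98.1% and Rps19-ps3 at 94.1%, so their reads may be shared with the parents.

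The coding sequences of Rpl39l (chr16:10174310-10174465, plus strand) and Rpl39 (between chrX:37082701-37085127, minus strand, joined exons; both on GRCm38) show the bases by which reads of such a pair can differ. Both have 156 bases, and capitals mark the 23 that differ.
Rpl39l: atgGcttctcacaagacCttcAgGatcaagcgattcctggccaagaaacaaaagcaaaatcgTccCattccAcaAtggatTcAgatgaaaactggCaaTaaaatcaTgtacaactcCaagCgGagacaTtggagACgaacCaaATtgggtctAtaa
Rpl39: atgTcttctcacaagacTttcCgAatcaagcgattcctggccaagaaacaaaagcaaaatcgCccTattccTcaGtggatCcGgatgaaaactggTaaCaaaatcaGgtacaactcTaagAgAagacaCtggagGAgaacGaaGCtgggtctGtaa

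Rps4l (mm9 chr6, 148303178 to 148304118), an autosomal copy of Rps4x, had its highest means on days 0 to 3. In the course it was at 682, 715 and 670 FPKM in ESCs, 687, 664, 651, 733 and 668 FPKM in EpiLCs, 665, 707 and 1095 FPKM at day 3, 490, 396 and 447 FPKM at day 4, 182, 208 and 191 FPKM at day 5, 128, 100 and 118 FPKM at day 6, and 95, 63.6, 68.6, 77.2 and 84.7 FPKM at day 7. From day 4 on each day lay below the one before without overlap. The log2 difference was -2.51 for day 7 against day 4 (SE 0.18, adjusted p = 6.95e-13, limma) and -3.14 for day 7 against ESCs (SE 0.18, adjusted p = 9.75e-16, limma).

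In EpiSCs Rps4l was at 2.77, 2.69 and 0.592 FPKM, a log2 difference of -7.92 from EpiLCs (SE 0.18, adjusted p = 1.63e-24, limma). MEFs of the same strain label had a lowest, median and highest of 70.2, 83.0 and 89.2 FPKM, within the range of day 7. Rps4l made up 0.105% of the summed level of Rps4l and Rps4x in EpiSCs and 4.35% in MEFs; in the course its share was 13.3% in ESCs, 17.5% in EpiLCs and 3.71% at day 7.

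Rpl10l (mm9 chr12, 67384366 to 67385388), an intronless copy of X-linked Rpl10, fell at every step of the course that was tested. It was at 172, 218 and 206 FPKM in ESCs, 123, 62.3, 112, 139 and 119 FPKM in EpiLCs, 15.9, 12.1 and 13.2 FPKM at day 4, and 6.17, 1.86, 4.31, 1.08 and 3.73 FPKM at day 7. No pair of these groups overlapped. The log2 differences were -0.88 for EpiLCs against ESCs (SE 0.26, adjusted p = 0.00554, limma), -2.88 for day 4 against EpiLCs (SE 0.26, adjusted p = 4.75e-10, limma) and -1.86 for day 7 against day 4 (SE 0.26, adjusted p = 3.99e-07, limma). It was listed at 0 in all 3 EpiSC libraries and in 5 of 6 MEF libraries, the last of which held 0.208 FPKM.

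Rpl39l (mm9 chr16, 10170321 to 10175004), the copy of X-linked Rpl39, had its highest mean at day 2. It was at 106, 46.4, 108, 127 and 107 FPKM in EpiLCs and 64.1, 56.3 and 62.9 FPKM in ESCs, and this difference did not pass (adjusted p = 0.11, limma), with replicate 2 of the EpiLCs below all ESC libraries. At day 4 it was at 20.3, 10.9 and 7.97 FPKM, a log2 difference of -2.85 from EpiLCs (SE 0.32, adjusted p = 2.78e-08, limma), and at day 7 at 4.88, 2.77, 2.91, 2.10 and 4.60 FPKM, a log2 difference of -1.6 from day 4 (SE 0.32, adjusted p = 7.05e-05, limma). Fibroblasts held more than day 7 EBs, with 12.7 ± 4.06 FPKM in MEFs (n = 6) and 3.45 ± 1.22 FPKM at day 7 (n = 5), a log2 difference of 1.61 (SE 0.26, adjusted p = 2.36e-06, limma). EpiSCs were at 0.509, 0.265 and 0.646 FPKM.

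Rpl36al, the autosomal copy of X-linked Rpl36a, moved against its parent at day 2. It was at 851, 846, 847, 824 and 803 FPKM in EpiLCs and at 508, 545 and 494 FPKM in ESCs, a rise of 0.69 on the log2 scale without overlap (SE 0.18, adjusted p = 0.00174, limma). Rpl36a fell by 0.61 in the same libraries. The copy's share of the pair was 30.5% ± 1.14 in EpiLCs and 15.1% ± 0.925 in ESCs, and stayed between 27.9% and 35.4% in the means of all later days, EpiSCs and MEFs. By day 7 Rpl36al itself was back at 469 ± 36.0 FPKM, against 516 ± 26.5 FPKM in ESCs (adjusted p = 0.518, limma).

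Rps27l, known from human cells as a p53 target, had its highest means on days 2 to 4. It was at 349, 308, 377, 347 and 281 FPKM at day 7 and at 1219, 931 and 897 FPKM at day 4, without overlap and with a log2 difference of -1.6 (SE 0.19, adjusted p = 2e-08, limma). The share of Rps27l in its pair with the parent Rps27 was 9.08% ± 0.583 at day 7 and 17.8% ± 1.17 at day 4. The parent's entry also carries the symbol Rps27rt. In EpiSCs the share was 18.5% ± 2.77.

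Rpl22l1, which in mice is held down by Rpl22, rose after day 2. It was at 396, 353 and 366 FPKM at day 4 and at 184, 186, 98.7, 206 and 176 FPKM in EpiLCs. All day 4 libraries lay above all EpiLC libraries, with a log2 difference of 1.16 (SE 0.24, adjusted p = 0.000284, limma); 2.71% of all entries were called higher by at least 1. Its share of the pair with Rpl22 was 54.5% ± 3.97 at day 4 and 36.8% ± 6.18 in EpiLCs. Rpl22l1 was also higher in EpiSCs than in EpiLCs, at 244, 297 and 270 FPKM in EpiSCs, by 0.71 on the log2 scale (SE 0.24, adjusted p = 0.0123, limma).

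Rpl14-ps1 (mm9 chr7, 52580328 to 52581021) had low values in both C57BL6 groups. It was at 0.280, 1.44 and 1.18 FPKM in EpiSCs, and MEFs had a lowest, median and highest of 0, 0.596 and 0.895 FPKM, while every CBMS1 library held between 88.2 and 297 FPKM. The log2 difference was -6.17 for EpiSCs against EpiLCs (SE 0.21, adjusted p = 1.29e-20, limma) and -6.13 for MEFs against day 7 (SE 0.18, adjusted p = 7.81e-24, limma). Its share of the summed level with Rpl14 was 0.404% in EpiSCs and 0.297% in MEFs, and 37.4% to 40.6% in the means of the CBMS1 groups. Rpl14 itself, at 240 ± 16.4 FPKM in EpiSCs and 203 ± 38.0 FPKM in EpiLCs, did not pass (adjusted p = 0.308, limma). Strain and cell type cannot be told apart here.

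**Figure D4:**
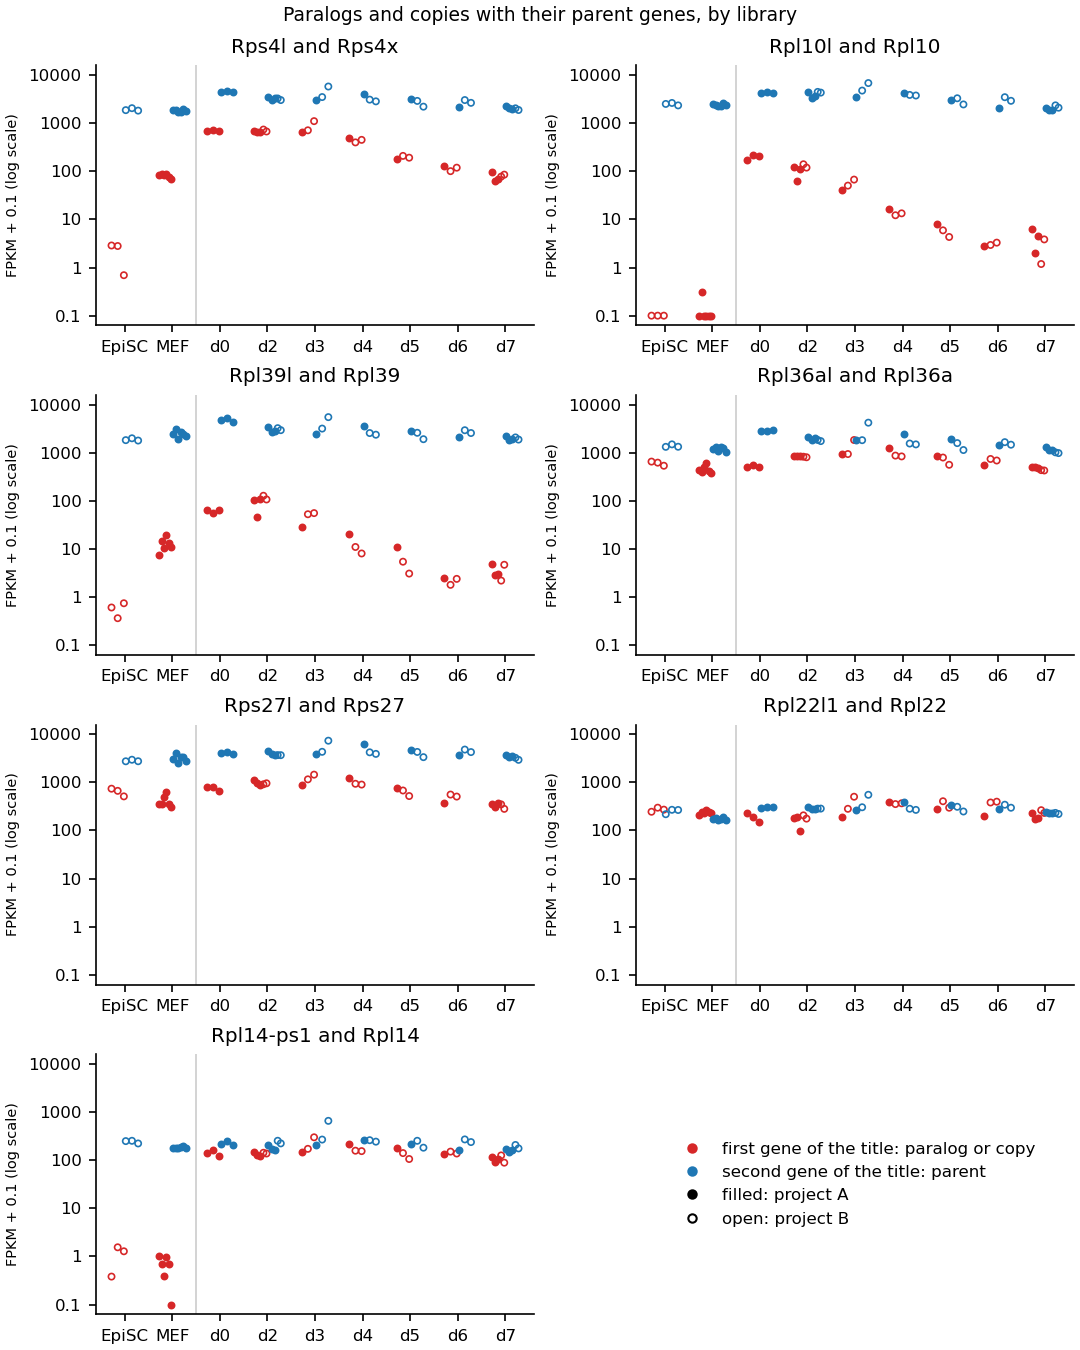
FPKM + 0.1 (log scale) of 7 paralogs or copies (red) and their parent genes (blue) in each library, by group; filled points are project A, open points project B. Rps4l, Rpl10l and Rpl39l sink over the course while their parents stay above 1000 FPKM, and Rpl14-ps1 is at most 1.44 FPKM in EpiSCs and MEFs.

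The other paralogs and copies were low or moved with the core genes. Rpl7l1 averaged 55.6 FPKM at day 7 and 87.9 FPKM at day 4 and fell (adjusted p = 5.41e-06, limma). Rpl3l, known from muscle, averaged at most 1.38 FPKM in any group, in ESCs. Rps19-ps3 averaged 6.55 to 22.3 FPKM, Rpl31-ps12 1.08 to 3.74 FPKM and Rps15a-ps6 0.163 to 6.26 FPKM in the group means. Rps15a-ps4 did not reach the level needed for a test. The entry that opens with Rplp2-ps1 averaged 10.9 to 23.8 FPKM. It also carries the symbol Wdr89, so its level cannot be assigned to the pseudogene.

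Across libraries the core genes followed a common level. The correlation of a core gene with the median of the core genes on the log2 scale had a median of 0.94 over 34 libraries and 0.93 over the 33 without replicate 3 of day 3, and 66 and 58 of 73 genes were above 0.8. Each point of such a correlation shares its library and scaling, so the values are descriptions. The lowest were those of Rpl37, Rplp2, Rps28, Rplp1 and Rpl39. Among 6758 entries outside the rule with a mean of at least 10 FPKM, the group means most like those of the core genes over the 9 groups were those of Atp5j2 (Pearson r = 0.99), Cmc2, Ndufb7, Commd5, the entry that holds Rpl30, Gnb2l1, Eef1b2 and Slirp (r = 0.97). Gnb2l1 is the ribosome-bound protein Rack1 and Eef1b2 a translation elongation factor.

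Other genes of ribosome production were described by lists chosen from textbook knowledge. Of 30 ribosome biogenesis factors, which process ribosomal RNA and assemble the subunits, 21 rose and 2 fell in EpiLCs against ESCs, with a median of 0.50, where 26.7% of all entries rose and 25.5% fell. No core gene rose there. At day 7 against day 4 all 30 fell, with a median of -1.06, and 18 of them by at least 1. Of all entries 28.3% fell, and 6.91% by at least 1. Equal sums of all other entries and quantile normalization were applied to these lists after seeing the data. Of the 30 factors, 28 fell under each, where 16.3% and 31.8% of all entries did. The medians over the 30 were -0.72 and -0.77. In EpiSCs against EpiLCs 29 fell and 0 rose, with a median of -1.01, where 28.6% of all entries fell. In MEFs against day 7 26 fell and 1 rose, with a median of -0.75, where 40.7% of all entries fell. Of 75 mitochondrial ribosomal proteins, 22 rose and 2 fell in EpiLCs against ESCs, and 22 of 75 is near the 26.7% of all entries. At day 7 against day 4, 66 of them fell and 1 rose, with a median of -0.68, and 47 fell and 4 rose with equal sums of all other entries, with a median of -0.33. Of 30 translation factors, 15 rose and 1 fell in EpiLCs against ESCs. At day 7 against day 4, 24 fell and 1 rose with a median of -0.59, but with equal sums 16 fell and 4 rose, and with quantile normalization 12 fell and 5 rose with a median of -0.04. Of 9 noncoding hosts of small nucleolar RNAs, several with TOP starts of their own, 7 fell and 0 rose at day 7 against day 4, and 5 fell under either scaling.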

How the data were processed

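RNA was sequenced from TruSeq Stranded mRNA libraries, per the labels' protocols. The submitters' processing notes name cutadapt 1.4.1, HISAT2 2.0.4, Cufflinks 2.2.1, Cuffdiff and mm9; the roles, the use of strand and the scaling are not given in the sources used here. The deposited values are FPKM per gene for each library, made by the authors, and were used as deposited; FPKM of very short genes and of near-identical copies are less certain.

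Here, entries at 1 FPKM or more in at least 3 of 34 libraries (14595) were tested on log2(FPKM + 1) with limma 3.58.1 in R 4.3.3, with all 9 groups in the fit, a trend on the mean and Benjamini-Hochberg adjustment over all entries. Differences are on that log2 scale, which understates changes of low genes. A call needs an adjusted p below 0.05 or, where stated, also a difference of at least 1. In simulated data of 14595 entries, shifts of 1 were recovered for 95 of 100 entries in the design of day 7 against ESCs. In that of day 7 against day 4 it was 92 of 100, and shifts of 0.5 were recovered for 47 and 43. The noise was normal and independent between entries, and only entries above a set mean level were shifted. Core genes followed a common level across libraries, so these rates may not hold for them. The named members were taken by rule: the 5 largest called differences each way per comparison, the highest and lowest levels, the widest and narrowest ranges, all paralogs with their parents, and a short list of well-known genes. Members and lists were chosen with earlier results of these data known. Several comparisons share the libraries of a group and are not independent. Figures and summaries used Python 3.11.15, numpy 2.4.6, pandas 2.3.3 and matplotlib 3.10.9. Alternatives covered the pseudocount, the filter, the scaling, project, replicate blocks and leaving out libraries. Absolute depth is unknown, so no counting error is given.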

Additional observations from a re-analysis of the deposited data

Results flagged for a closer look

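Among 143 groups of 4 to 10 libraries examined for a single library far from its group, 9 were found (6.29%), where chance gives about 1 in 20. In EpiLCs, replicate 2 had the lowest Rpl39l, 46.4 FPKM against 106 to 127 FPKM in the others, and the highest Rpl21, 665 FPKM against 586 to 599 FPKM. Replicate 3 of the EpiLCs had the lowest Rpl22l1, 98.7 FPKM against 176 to 206 FPKM. Replicate 1 of the EpiLCs had the highest Rps27, 4531 FPKM against 3657 to 3816 FPKM, and the highest Rpl22, 301.2 FPKM against 280 to 284 FPKM. At day 7, replicate 4 had the highest Rpl38, 3434 FPKM against 2875 to 3000 FPKM. In MEFs, replicate 2 held 0.208 FPKM of Rpl10l where the others are listed at 0, replicate 6 had the lowest Rpl36, 1211 FPKM against 1376 to 1429 FPKM, and replicate 5 the highest Rpl5, 634 FPKM against 551 to 579 FPKM.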

How the results depend on the processing

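Members past the adjusted p numbered 12 of 88 for EpiLCs against ESCs, 8 for day 4 against EpiLCs, 79 for day 7 against day 4, 63 for day 7 against ESCs, 47 for EpiSCs against EpiLCs and 29 for MEFs against day 7. Under quantile normalization these counts were 26 (13 higher, 13 lower), 14, 28 (11 higher, 17 lower), 40 (22 higher, 18 lower; reversed in balance), 37 (17 higher, 20 lower) and 62, and the medians 0.038 at day 4 against EpiLCs, -0.022 and 0.032 at day 7 against day 4 and ESCs, 0.0011 in EpiSCs and -0.27 in MEFs; Rplp2 at day 7 against day 4 turned to 0.39 and Rpl36al at day 7 against ESCs to 0.37. Equal sums of all other entries gave 13 at day 4, 44 and 33 at day 7 against day 4 and ESCs, and 67 in MEFs, with medians of -0.26 and -0.15 at day 7, -0.14 in EpiSCs and -0.42 in MEFs. Fitting the 2 groups alone gave 30, 17 and 48 for EpiLCs, day 4 and MEFs. Within a project, EpiLCs gave 21 and EpiSCs 30. With no filter, day 4 gave 5, with canonical symbols in entries of 1 symbol 3, and with the mean of each MEF culture MEFs gave 12. Calls at a difference of 1 numbered 0, 3, 7, 10, 7 and 4; project A alone or a pseudocount of 0.1 gave 1 in EpiLCs, project B alone, equal sums and quantile normalization 4 at day 7 against day 4, both scalings 5 against ESCs, and canonical symbols 0, 2, 5, 1 and 0 from day 4 against EpiLCs on. Leaving out a library gave 8 to 12, 4 to 8, 55 to 79, 47 to 62, 26 to 44 and 22 to 29 calls, 4 to 7 at a difference of 1 for day 7 against day 4, and medians from -0.68 to -0.47 there. Without replicate 3 of day 3, chosen after seeing the data, the 6 counts were 16, 26, 82, 76, 60 and 42. Deviations from group means correlated weakly between libraries of the same label number or culture course, at -0.112 to 0.178. With so few libraries this does not exclude links between them. A replicate block by label number gave 15, 7, 64, 69, 45 and 37, and by culture course 5 at day 4 and 65 at day 7 against day 4. The share in ESCs was 27.7% with canonical symbols and 28.8% over loci of at least 200 bases, and that of day 7 25.4% over such loci. The causes of these shifts were not tested. Precision is limited by 3 to 6 libraries a group and by unknown depth.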

Other observations

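In MEFs both paralogs Rps27l and Rpl36al were highest in the libraries of passage 1. Rps27l was at 501 and 630 FPKM at passage 1, against 347 and 355 FPKM at passage 0 and 352 and 308 FPKM at passage 2. Rpl36al was at 512 and 623 FPKM at passage 1, against 440 and 397 FPKM at passage 0 and 424 and 380 FPKM at passage 2. With 2 cultures a passage this was not tested, and the observation was made after the values were seen.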
